A study of Homo sapiens with 6 samples.

Results

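The 36 genes described here belong to sugar breakdown and to the response to low oxygen, and were taken by symbol from the deposited read table, which lists 29710 genes. All 36 had a row and enough reads to be tested, among 16515 tested genes. They comprise 15 glycolytic enzymes, 2 lactate dehydrogenases, 4 glucose and lactate transporters, 3 regulators of flux, 4 hypoxia-inducible factors and prolyl hydroxylases, and 8 effectors that low oxygen is known to induce. RNA came from MDA-MB-231, an established human triple-negative breast cancer line, and was sequenced in paired-end, strand-specific libraries. In 3 biological replicates the cells carried an empty vector (control), and in the other 3 they overexpressed SRPK2-FLAG, a tagged form of SRPK2, a kinase of serine- and arginine-rich splicing factors. The labels give no oxygen level, vector promoter, transfection method or clone, and do not say how the replicates were kept apart, so p-values measure the spread between these libraries only.

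Glycolysis splits glucose into pyruvate and yields ATP without oxygen. In low oxygen, the prolyl hydroxylases (EGLN genes) no longer mark the alpha subunits of hypoxia-inducible factor (HIF1A and EPAS1) for destruction, the factor accumulates, and it binds the core letters ACGTG or GCGTG near its target genes. Its known targets include most glycolytic enzymes, the glucose importer SLC2A1, the lactate exporter SLC16A3 and the kinase PDK1, which holds pyruvate out of the mitochondria. Many cancer lines, MDA-MB-231 among them, run glycolysis at a high rate in oxygen. The factor is controlled mainly through the stability of its protein, which RNA counts do not measure.

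Libraries held 31140537 to 36908878 reads assigned to genes, of which mitochondrial genes took 9.33% to 10.4%. SRPK2 itself was 6.52-fold higher in the SRPK2 libraries, with 38.6 ± 2.27 CPM in control and 252 ± 41.0 CPM in SRPK2 libraries (SD, n = 3 each), where CPM is the read count of a gene scaled by the depth of the library. The 6 genes listed as markers of the line (VIM, CD44, AXL, CAV1, MSN and ANXA1) summed to 7306 to 7713 CPM. Of the 6 listed luminal and hormone receptor genes, ESR1, PGR and FOXA1 had at most 4 reads in any library. The others were expressed, with 1500 to 1998 reads per library for ERBB2, 489 to 556 for GATA3 and 462 to 568 for EPCAM. The 6 luminal and hormone receptor genes together summed to 76.5 to 77.2 CPM in controls and 79.9 to 82.2 CPM in SRPK2 libraries, higher in all 3. Of the 4 fibroblast markers, 3 passed the filter on low reads, and the 4 summed to 5.98 to 6.90 CPM in control and 8.21 to 8.88 CPM in SRPK2 libraries, higher in all 3. Leukocyte markers summed to 3.70 to 4.81 CPM and endothelial markers to 6.41 to 8.21 CPM, with overlapping groups. PTPRC and HBB had at most 9 reads, LYZ at most 14 and VWF at most 3. Others had more, with 106 to 147 reads per library for CD68, 105 to 155 for PECAM1 and 101 to 156 for KDR. The part of the luminal and fibroblast differences in the results below was not tested.

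No member passed the main test, which had group as its only term, and the differences between SRPK2 and control cells were small. At a Benjamini-Hochberg adjusted p under 0.05 in the edgeR quasi-likelihood test, 0 of 36 members passed, where 0.454% of all tested genes did (0.381% higher and 0.0727% lower with SRPK2). At an unadjusted p under 0.05, 7 of 36 members passed (19.4%), 6 higher and 1 lower, beside 17.2% of all tested genes, a share near the background. This split takes ALDOA and LDHB from their own rows. With overlapping rows added, as described below, ALDOA had an unadjusted p of 0.143 in edgeR and a log2 fold change of −0.09. LDHB then had an unadjusted p of 0.0366 in edgeR and a log2 fold change of −0.14. DESeq2 and limma-voom also called 0 members, while without the filter on low reads 1 member, LDHB, passed (adjusted p = 0.00401 in edgeR), beside 3.36% of all genes. The result depended on the model. An edgeR fit with a replicate block, which takes same-numbered libraries as pairs, called 15 of 36 members (41.7%), beside 23.6% of all genes. Called higher were HK1, HK2, GPI, PFKL, ALDOA, ENO2, SLC2A3, PFKFB4, HIF1A and NDRG1. Called lower were TPI1, GAPDH, ENO1, LDHB and ADM, with ALDOA and LDHB from their own rows. The labels do not say whether same-numbered libraries were matched. After the group mean of each gene was subtracted, same-numbered libraries correlated at 0.08, 0.23 and 0.17. Differently numbered libraries of the 2 groups correlated at −0.165 to −5.48e-05. Which of the 2 models fits the design cannot be told from the labels. The median log2 fold change of the members was 0.03, beside 0.0040 over all tested genes, and 21 of 36 were above 0, beside 51.2% of all genes.

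The size of any change can be bounded for most members. For 33 of 36, the 95% interval of the fold change lay within 1.5-fold in either direction, beside 77.2% of all tested genes. The exceptions were ALDOA, SLC16A1 and CA9, with 130 reads or fewer in each library. In 14 of 36 members (38.9%) the 3 SRPK2 libraries did not overlap the 3 controls in CPM, beside 20.1% of all tested genes. The 11 higher with SRPK2, beside 11.5% of all genes, were HK2, PFKL, PFKP, ALDOA, ENO2, SLC2A1, SLC2A3, PFKFB4, PDK1, EGLN3 and NDRG1. ALDOA is counted here from its own row, and its sum with an overlapping row, described below, overlapped between groups. The 3 lower, beside 8.69%, were ENO1, ADM and CA9. With size factors computed by the RLE method, 11 members did not overlap (30.6%), beside 20.3% of all genes. Leaving out 1 library, which makes overlap rarer in any gene, gave 14 to 19 members (38.9% to 52.8%), beside 25.7% to 42.5% of all genes.

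**Figure D1:**
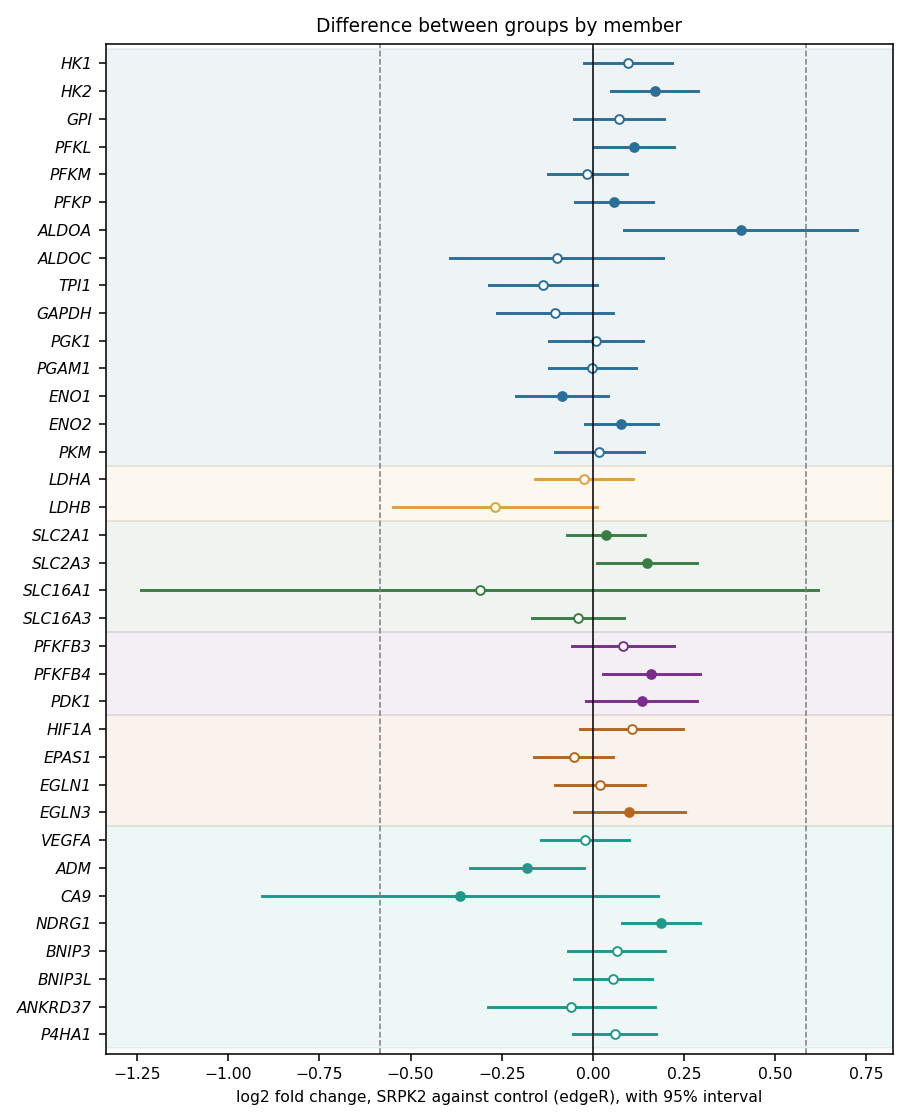
Log2 fold change (SRPK2 minus control, edgeR) of the 36 members with its 95% interval, ordered by role; filled points are members whose groups do not overlap, open points those whose groups do, and dashed lines mark 1.5-fold. Of the 36 intervals, 33 lie between the dashed lines, and ALDOA, SLC16A1 and CA9 reach past them.

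Per unit of length, GAPDH and ENO1 led the members. In the deposited FPKM values (fragments per kilobase of gene, scaled to library size), GAPDH, which oxidises glyceraldehyde 3-phosphate, stood at 1753 ± 74.8 in control cells (SD, n = 3), rank 16 of all genes by mean FPKM. It was followed by ENO1 at 476 ± 4.84, LDHA at 389 ± 9.41, TPI1 at 280 ± 10.7 and PKM at 274 ± 8.25 FPKM (SD, n = 3 each), and TPI1 and PKM did not differ beyond their spread. PGAM1 at 126 ± 2.44 and PGK1 at 124 ± 3.52 FPKM were next and also lay within their spread. This order takes ALDOA from its own row, and a row that overlaps it on the same strand, described below, stood at 290 to 310 FPKM in controls. The least abundant members were SLC16A1, a lactate and pyruvate carrier, with 0.02 to 0.08 FPKM per library, and CA9, with 0.25 to 0.38 FPKM. Together the 36 members took 1.77% to 1.83% of the reads of a library, with GAPDH alone at 0.409% to 0.473%. The spread within a group was small: the median coefficient of variation was 4.42% over 31 members with a mean of at least 10 CPM, and 5.08% over 9695 such genes.

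**Figure D2:**
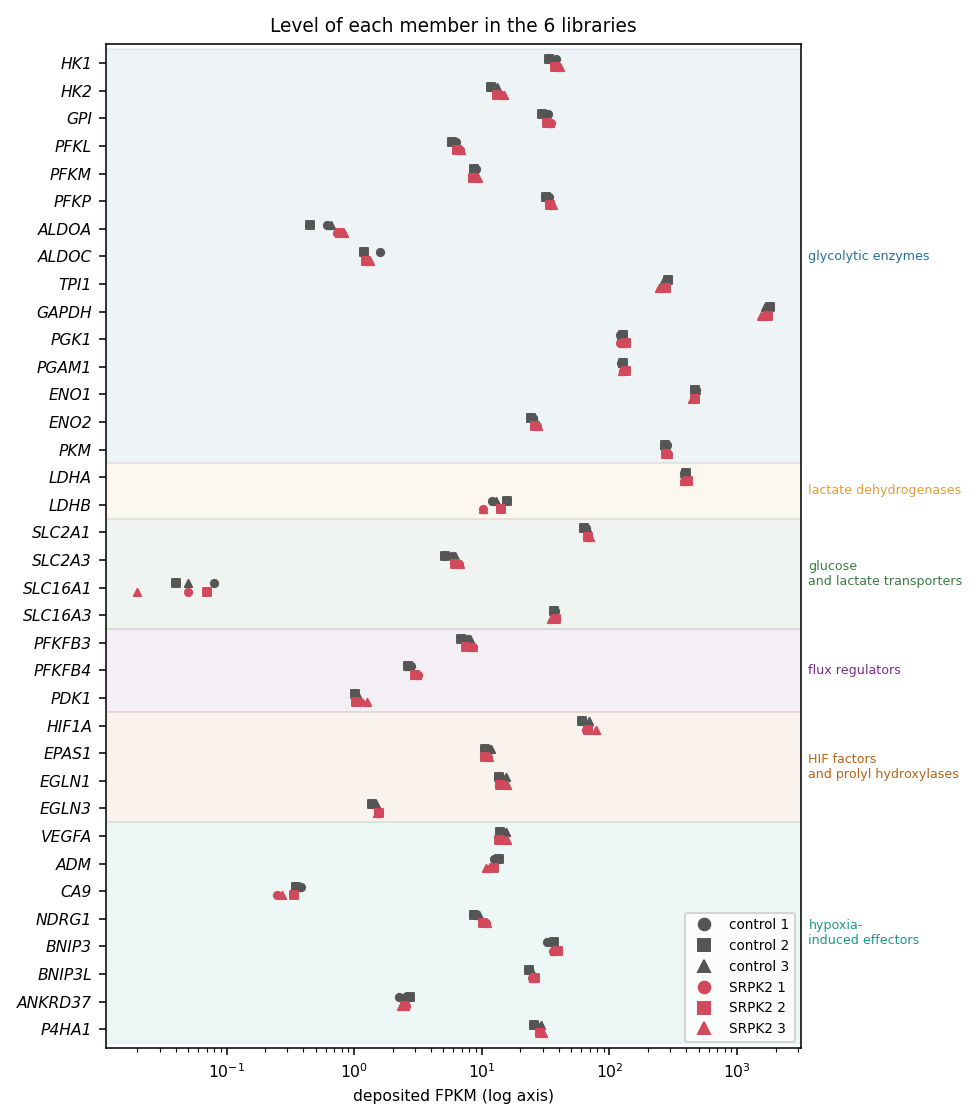
Deposited FPKM of each member in each of the 6 libraries on a log axis, control and SRPK2 libraries in separate colours, ordered by role. The members span from below 0.1 FPKM (SLC16A1) to 1804 FPKM (GAPDH), and the libraries of a member lie close together on this scale.

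Of the enzymes of the upper steps, which phosphorylate and split the sugar, HK2, PFKL and ALDOA had an unadjusted p under 0.05. All 3 had log2 fold changes above 0, and none passed the adjusted test. ALDOA is taken here from its own row. With an overlapping row added, as described below, the log2 fold change of ALDOA was −0.09 (unadjusted p = 0.143 in edgeR). HK2, the inducible hexokinase that traps glucose in the cell, had 78.8, 79.1 and 84.6 CPM in the controls and 92.4, 86.2 and 94.2 CPM with SRPK2. All 3 SRPK2 libraries lay above all 3 controls, replicate 2 by the least. Its log2 fold change was 0.17 (SE 0.05, adjusted p = 0.191 in edgeR). PFKL, the liver-type phosphofructokinase subunit, had 62.4, 58.7 and 59.8 CPM in controls and 66.6, 63.5 and 65.6 CPM with SRPK2. The groups were again apart, with control replicate 1 and SRPK2 replicate 2 the nearest, and the log2 fold change was 0.11 (SE 0.05, adjusted p = 0.279 in edgeR). PFKP, the platelet-type subunit and the most abundant of the phosphofructokinases per length, stood at 282 ± 7.47 CPM in controls and 294 ± 2.61 CPM with SRPK2 (SD, n = 3 each), without overlap. Control replicate 1 at 291 CPM and SRPK2 replicate 2 at 292 CPM nearly met. PFKM, the muscle-type subunit, stood at 71.0 ± 1.94 and 70.2 ± 1.76 CPM. HK1, the constitutive hexokinase, and GPI, which isomerises glucose 6-phosphate, had overlapping groups and log2 fold changes of 0.10 and 0.07.

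ALDOA, the main aldolase of most cells, and LDHB, the lactate dehydrogenase subunit of oxidative tissues, share their coding exons with another gene on the same strand, and the row of that other gene holds far more reads. The ALDOA row held 92, 63 and 101 reads in controls and 96, 114 and 130 with SRPK2, or 0.45 to 0.83 FPKM. The overlapping row CTD-2515O10.6 (ENSG00000285043, AC093512.2 in GENCODE 29) held 33616 to 40454 reads, or 277 to 310 FPKM. In GENCODE 29 its exons contain all 1092 coding bases of the principal ALDOA transcript, and 7 of the 9 exons have the same ends. The LDHB row held 1046 to 1724 reads, and the overlapping row (ENSG00000285854, AC010197.2 in GENCODE 29) held 15829 to 20637 reads and contains 93.5% of the 1002 coding bases of LDHB. How the authors' counter assigned reads to overlapping genes is not given in the sources used here.

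The longest coding exon of each gene that the overlapping gene carries with the same ends is shown, since a read inside it cannot be told apart between the rows. ALDOA lies on chromosome 16 from 30064164 to 30070457 (plus strand, GRCh38, GENCODE 29), and its exon 3 of 212 bases at chr16:30067450-30067661 is coding. LDHB lies on chromosome 12 from 21635342 to 21757857 (minus strand), and its exon 4 of 174 bases at chr12:21643935-21644108 is coding.
ALDOA exon 3: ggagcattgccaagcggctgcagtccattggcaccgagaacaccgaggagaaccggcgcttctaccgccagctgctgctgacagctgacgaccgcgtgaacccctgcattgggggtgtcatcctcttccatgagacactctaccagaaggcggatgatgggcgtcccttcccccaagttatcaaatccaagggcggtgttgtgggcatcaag
LDHB exon 4: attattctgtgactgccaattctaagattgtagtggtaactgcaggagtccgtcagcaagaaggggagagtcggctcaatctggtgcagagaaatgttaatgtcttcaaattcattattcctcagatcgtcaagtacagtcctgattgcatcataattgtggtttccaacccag
Every base of both is shared, so none is set in capitals.

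The direction for ALDOA depended on which row was read. Its own row had a log2 fold change of 0.40 (SE 0.15, adjusted p = 0.220 in edgeR), with all 3 SRPK2 libraries above the controls. The sum of both rows was 1153, 1122 and 1057 CPM in controls and 1076, 1065 and 981 CPM with SRPK2, with overlapping groups. The log2 fold change of the sum was −0.09 (SE 0.06, adjusted p = 0.423 in edgeR). For LDHB, the row alone held 40.03, 53.1 and 42.2 CPM in controls and 33.4, 46.4 and 32.3 CPM with SRPK2. Replicate 2 was the highest in both groups, and the groups overlapped (log2 fold change −0.27, SE 0.13, adjusted p = 0.305 in edgeR). The LDHB sum was 598, 640 and 606 CPM in controls and 539, 601 and 528 CPM with SRPK2, a log2 fold change of −0.14 (SE 0.06, adjusted p = 0.258 in edgeR), so the LDHB direction held and the size was smaller. With both sums in place, the 36 genes took 1.92% to 1.99% of the reads.

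**Figure D3:**
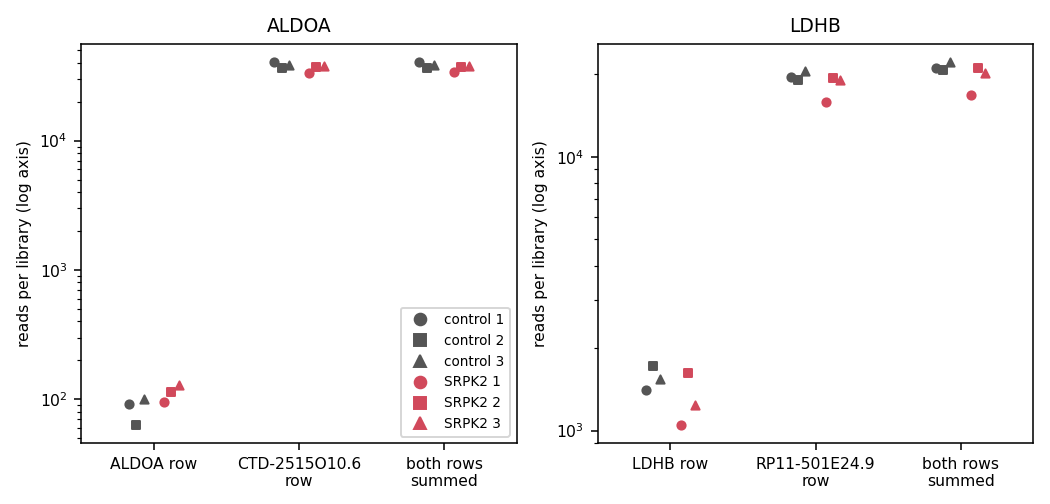
Reads per library, not scaled for depth, on a log axis, for ALDOA and LDHB, as the member row alone, the overlapping same-strand row and the sum. The ALDOA row held 63 to 101 reads in controls and 96 to 130 with SRPK2, so these unscaled reads overlap between groups. The ALDOA sum of 33712 to 40546 reads also overlaps. The LDHB reads of SRPK2 replicates 1 and 3 lie below every control, as the row alone and as the sum.

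The enzymes of the later steps, from TPI1 to PKM, had log2 fold changes between −0.14 and 0.08. TPI1, which interconverts the triose phosphates, had 846, 888 and 794 CPM in controls and 771, 827 and 703 CPM with SRPK2. SRPK2 replicate 2 lay inside the control range and the others below it (log2 fold change −0.14, SE 0.07, adjusted p = 0.326 in edgeR). ENO1, the main enolase, had 2797, 2778 and 2729 CPM in controls and 2674, 2698 and 2464 CPM with SRPK2. Its groups did not overlap, with SRPK2 replicate 3 the lowest (log2 fold change −0.08, SE 0.06, adjusted p = 0.464 in edgeR). GAPDH, often used as a reference gene, ranged over 4372 to 4899 CPM in controls and 3936 to 4646 CPM with SRPK2 and overlapped, with a log2 fold change of −0.11 (95% interval −0.26 to 0.05). ENO2, the neuron-type enolase, stood at 118 to 120 CPM in controls and 124 to 127 CPM with SRPK2, apart between groups, with a log2 fold change of 0.08. PGK1, PGAM1 and PKM, which carry the steps to pyruvate, had log2 fold changes of 0.01, −0.0015 and 0.02. ALDOC, the brain-type aldolase of the upper steps, had 111 to 162 reads per library and a log2 fold change of −0.10. GAPDH, TPI1, PGK1, PGAM1, ENO1 and LDHA have processed pseudogenes, and how reads that match several places were counted is not stated, so their levels are uncertain to that extent. LDHA, which turns pyruvate into lactate, stood at 2620 ± 104 and 2576 ± 142 CPM (SD, n = 3 each), with a 95% interval of −0.16 to 0.11 around a log2 fold change of −0.02, which was 0.011 with scaling by library size alone.

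Of the transporters, SLC2A3 (GLUT3, a high-affinity glucose importer) had 39.7, 35.4 and 41.2 CPM in controls and 43.8, 41.4 and 43.7 CPM with SRPK2. The groups did not overlap, although control replicate 3 and SRPK2 replicate 2 nearly met. The log2 fold change was 0.15 (SE 0.06, adjusted p = 0.257 in edgeR). SLC2A1 (GLUT1, the main glucose importer of cancer lines) was at 480 ± 3.26 and 492 ± 1.99 CPM (SD, n = 3 each), apart between groups by a log2 fold change of 0.03. SLC16A3 (MCT4, the lactate exporter of glycolytic cells) overlapped at 373 to 390 and 344 to 387 CPM. SLC16A1 (MCT1) had 5 to 19 reads in each library, too few to give a direction, since its 95% interval ran from −1.24 to 0.62.

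All 3 regulators of flux had log2 fold changes above 0, and none passed the test. PFKFB4, which makes and removes fructose 2,6-bisphosphate, the activator of phosphofructokinase, had 19.1, 18.1 and 17.9 CPM in controls and 21.3, 20.2 and 20.2 CPM with SRPK2. The groups did not overlap (log2 fold change 0.16, SE 0.06, adjusted p = 0.227 in edgeR). PDK1, the inhibitor of pyruvate dehydrogenase, had 16.7, 16.9 and 17.0 CPM in controls and 18.3, 17.1 and 20.1 CPM with SRPK2. Replicate 2 lay just above the controls and replicate 3 the farthest (log2 fold change 0.13, SE 0.07, adjusted p = 0.343 in edgeR). PFKFB3, the relative of PFKFB4 with strong kinase activity, overlapped at a log2 fold change of 0.08.

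The genes of the oxygen-sensing switch overlapped, apart from EGLN3. HIF1A had 354, 356 and 391 CPM in controls and 371, 386 and 428 CPM with SRPK2. Replicate 3 was the highest in both groups, and the log2 fold change was 0.11 (SE 0.07, adjusted p = 0.404 in edgeR). EPAS1, which encodes HIF-2 alpha, stood at 91.0 ± 2.69 and 87.8 ± 2.52 CPM, and EGLN1, the main HIF prolyl hydroxylase, at 85.8 ± 4.18 and 86.9 ± 4.25 CPM (SD, n = 3 each). EGLN3, a prolyl hydroxylase gene that HIF itself induces, had 11.5, 11.4 and 11.8 CPM in controls and 12.6, 12.8 and 11.8 CPM with SRPK2. Control replicate 3 and SRPK2 replicate 3 were nearly equal, and the log2 fold change was 0.10 (SE 0.07, adjusted p = 0.472 in edgeR).

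NDRG1 and ADM, both known hypoxia-induced effectors, had the smallest p-values in each direction among the effectors. NDRG1, a stress-response protein linked to differentiation, had 122, 119 and 125 CPM in controls and 142, 135 and 140 CPM with SRPK2. Every SRPK2 library lay above every control. The log2 fold change of 0.19 (SE 0.05) had the lowest p of all members in the main test (edgeR adjusted p = 0.136). ADM, which encodes the vessel-dilating peptide adrenomedullin, had 32.3, 35.9 and 32.6 CPM in controls and 30.4, 31.9 and 26.7 CPM with SRPK2. The groups did not overlap, and the log2 fold change was −0.18 (SE 0.07, adjusted p = 0.239 in edgeR). CA9, the cell-surface carbonic anhydrase widely used as a marker of hypoxia, had 24, 21 and 23 reads in controls and 14, 21 and 18 with SRPK2, a log2 fold change of −0.36 with a 95% interval of −0.91 to 0.18. VEGFA, the vessel growth factor, had overlapping groups at 228 to 243 and 218 to 244 CPM (log2 fold change −0.02). BNIP3 and BNIP3L, which promote removal of mitochondria, P4HA1, a collagen prolyl hydroxylase, and ANKRD37, an ankyrin repeat protein, overlapped with log2 fold changes of 0.06, 0.05, 0.06 and −0.06. ANKRD37 and CA9 share exon bases with genes on the opposite strand, UFSP2 and ARHGEF39, as do PFKM with SENP1, SLC16A3 with CSNK1D and BNIP3L with PNMA2, and the strand setting of the counting is not given in the sources used here. The effectors thus lay on both sides of 0, with 4 above and 4 below.

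**Figure D4:**
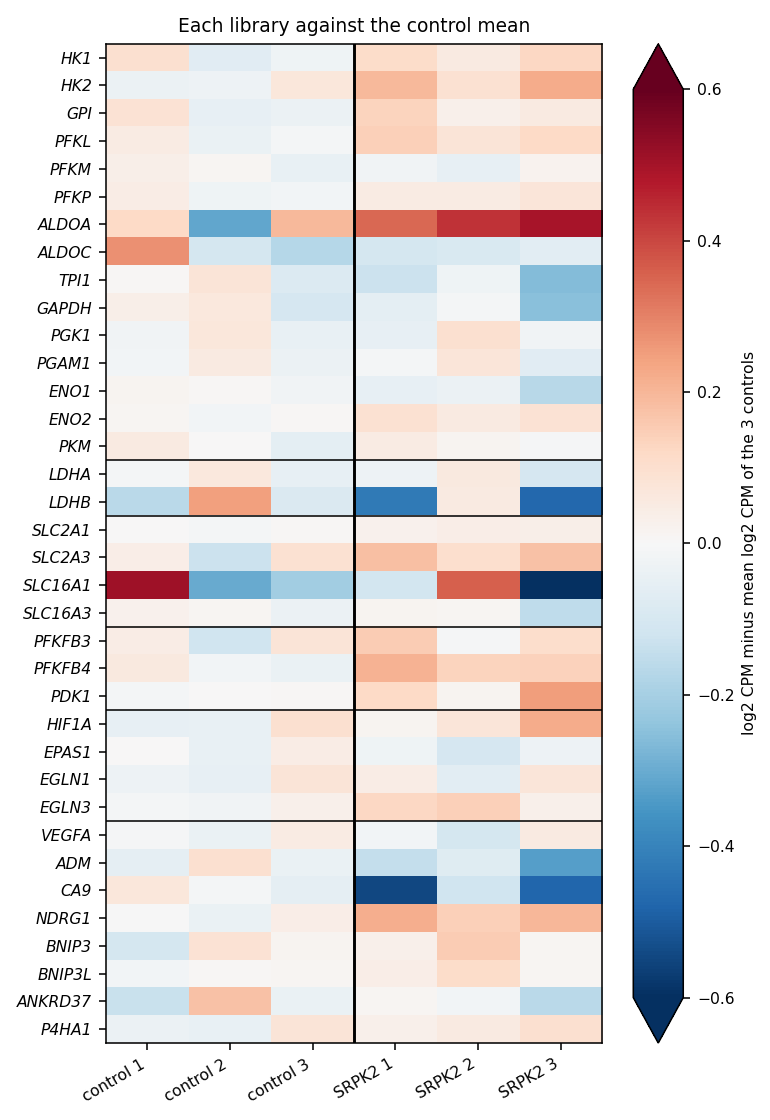
Log2 CPM of each member in each library minus the mean log2 CPM of the control libraries for that gene. Colours are limited to 0.6 either way, and members are ordered by role. SRPK2 replicate 2 is the lowest of the SRPK2 libraries for NDRG1 and HK2, and LDHB is highest in replicate 2 of both groups.

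When single libraries were left out, members passed only without SRPK2 replicate 2. In that case 3 of 36 members passed the edgeR quasi-likelihood test (8.33%), beside 8.37% of all tested genes, a share near the background. These were HK2 (log2 fold change 0.21, adjusted p = 0.0392), NDRG1 (0.21, adjusted p = 0.0335) and LDHB (−0.46, adjusted p = 0.0157). With the overlapping row added, LDHB without that library was at −0.20 (adjusted p = 0.0489). Leaving out any other single library gave 0 members. Single libraries also moved the size of several members. Leaving out SRPK2 replicate 3 took HIF1A to 0.041, PDK1 to 0.065, GAPDH to −0.039, TPI1 to −0.079, ENO1 to −0.046 and ADM to −0.11 on the log2 scale. Without control replicate 2, SLC2A3 was at 0.085, LDHB at −0.14 and ALDOA at 0.27.

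The balance between related genes was compared per length, as the share of one gene in the summed FPKM of its family. None of 11 shares passed an exact two-sided permutation test, whose smallest possible p for 3 against 3 libraries is 0.1. The adjusted p was 0.55 for 10 shares and 0.9 for BNIP3L, adjusted over the 11. ENO2 took 4.97%, 4.91% and 5.07% of the enolase pair in controls and 5.47%, 5.30% and 5.89% with SRPK2, with no overlap. HK2 took 25.6% ± 1.52 and 26.6% ± 0.401 of the hexokinase pair, and PFKP 68.8% ± 0.258 and 69.1% ± 0.354 of the phosphofructokinases (SD, n = 3 each). ALDOC took 69.7% ± 4.69 and 62.0% ± 0.822 of the aldolase pair, a share that rests on the few reads of the ALDOA row. LDHB took 3.36% ± 0.385 and 2.84% ± 0.430 of the lactate dehydrogenase pair, with overlap. That share uses the LDHB row alone, which held 6.12% to 8.29% of its reads summed with the overlapping row. SLC16A3 took 99.8% to 99.9% of the lactate carrier pair in every library.

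**Figure D5:**
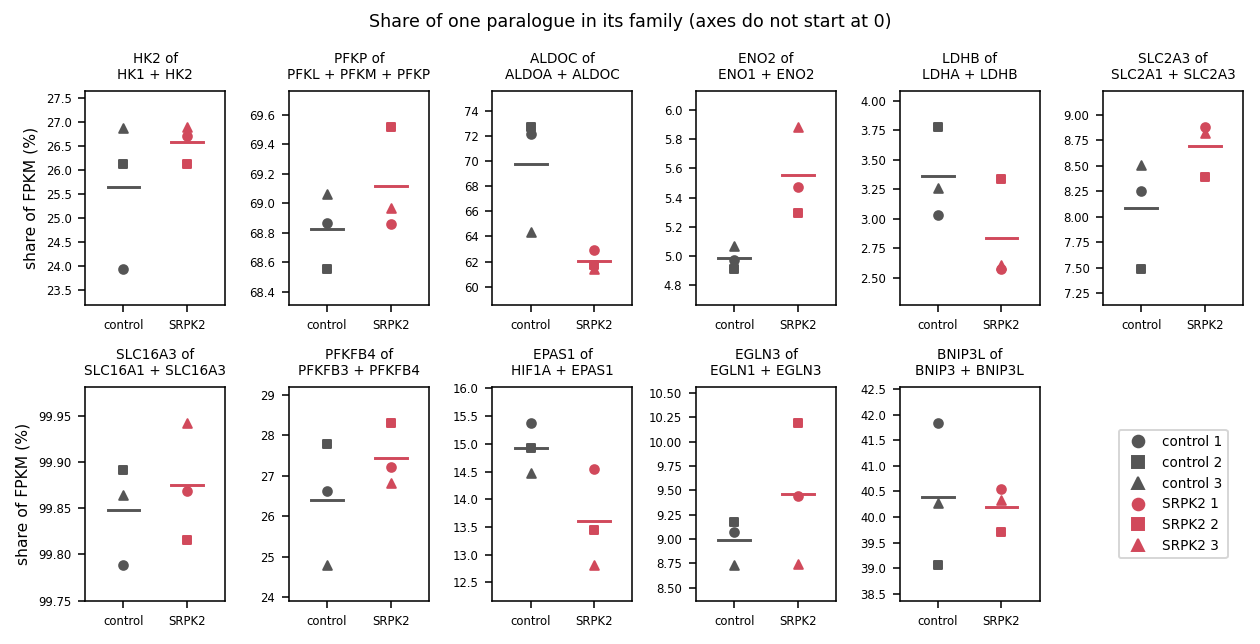
Share of one gene in the summed FPKM of its family, in percent, for each library of both groups; the axes do not start at 0. Only the ENO2 and ALDOC shares separate the groups, ENO2 higher and ALDOC lower with SRPK2.

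Gene length moved with the fold changes. Across genes, which are not independent replicates and share the libraries, Spearman's rho of length and log2 fold change was 0.43 over 34 members and 0.35 over 13624 genes. Over 5 equal groups from the shortest to the longest genes, the median log2 fold change ran from −0.10 through −0.05, −0.0034 and 0.03 to 0.06. A loess correction of each library for length moved GAPDH to −0.05, TPI1 to −0.09, ADM to −0.12, LDHA to −0.05, GPI and PFKP to 0.014, PFKL to 0.06, PDK1 to 0.06, NDRG1 to 0.12, HK2 to 0.14, and EPAS1, SLC16A3 and VEGFA each to −0.09, and 0 of 34 members passed the test after it. The part of length or RNA quality in the uncorrected values was not tested further.

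In the main test, no gene passed among the other genes of these pathways either. With the replicate block, 36 of 99 passed, beside 23.6% of all genes. Of 117 listed genes in 6 groups, 99 were tested and 0 passed the edgeR quasi-likelihood test, with 19 at an unadjusted p under 0.05 (19.2%, with 13 higher and 6 lower), a share near the 17.2% of all tested genes, and a median log2 fold change of 0.03. Among 30 other hypoxia-induced genes, 23 were above 0 (51.2% of all tested genes were), with a median of 0.09 beside 0.0040 over all genes, and 7 (23.3%) had an unadjusted p under 0.05, beside 17.2% of all genes. ANGPTL4, a secreted inhibitor of lipoprotein lipase and a HIF target, was closest to passing, with 61.5, 55.5 and 60.5 CPM in controls and 50.5, 47.9 and 48.6 CPM with SRPK2. Its groups were well apart, with a log2 fold change of −0.27 (SE 0.06, adjusted p = 0.0589 in edgeR), and DESeq2 called it (adjusted p = 0.0121). RORA, a nuclear receptor of the same group, was at 0.34 (SE 0.17, adjusted p = 0.334 in edgeR) with under 2 CPM in each library.

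In the other groups, the genes with the largest fold changes were given by rule, and none passed. Of the HIF partners, EGLN2, the third prolyl hydroxylase, was at 0.55 (SE 0.14, adjusted p = 0.131 in edgeR), and RBX1, a subunit of the ligase that removes HIF alpha, was at −0.25. The EGLN2 row had 57 to 105 reads per library, while the read-through row RAB4B-EGLN2 had 2241 to 2715 reads and a log2 fold change of −0.13, so the row of the overlapping gene again held far more reads. Of the transporters, SLC2A13 was at 0.28 and SLC16A7 at 0.18. In the pentose phosphate pathway, which draws sugar from glycolysis to make NADPH, PGLS was at −0.18 and RPIA at −0.12, and 6 of 7 genes were below 0. In pyruvate entry and the citric acid cycle, MPC2, a subunit of the mitochondrial pyruvate carrier, was at −0.19 and OGDH, a citric acid cycle enzyme, at 0.18. Of the other glycolytic enzymes, ENO3 was at −0.22. PGAM4, a gene copied from PGAM1, had 7 to 13 reads in 5 libraries and 185 in SRPK2 replicate 3, so its log2 fold change of 2.74 (SE 0.98, adjusted p = 0.213 in edgeR) rested on that library.

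The HIF core letters were counted in the 250 bases before each RefSeq transcription start (GRCh38.p14), of which 31 members had 58 windows. ACGTG on either strand stood in 22 of 58 member windows (37.9%), beside 18.5% of 35116 windows of all genes and 22.1% of 16166 windows of tested genes. GCGTG on either strand stood in 18 of 58 member windows. That share was below the 32.2% of windows of all genes and the 42.7% of windows of tested genes. Counted per gene, with some genes holding several windows, ACGTG stood in 19 of 31 members (61.3%), beside 28.4% of tested genes. GCGTG, also per gene, stood in 16 of 31 members (51.6%), beside 52.2% of tested genes. These counts describe letters, not binding. LDHA and CA9 are shown because both are known HIF targets and they lie near opposite ends of the members' abundance, 389 and 0.363 FPKM in control cells. The LDHA window, chr11:18394313-18394562 on the plus strand, holds 3 sites whose first letters lie 185, 87 and 73 bases before the start. The CA9 window, chr9:35673678-35673927 on the plus strand, holds 1 site at 18 bases. Capitals mark ACGTG on either strand, and CACGTG holds those letters on both.
LDHA: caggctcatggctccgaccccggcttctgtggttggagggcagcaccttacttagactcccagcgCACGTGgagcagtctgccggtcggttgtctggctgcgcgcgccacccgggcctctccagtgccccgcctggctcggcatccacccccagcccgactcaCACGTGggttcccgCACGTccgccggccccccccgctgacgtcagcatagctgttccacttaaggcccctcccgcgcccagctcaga
CA9: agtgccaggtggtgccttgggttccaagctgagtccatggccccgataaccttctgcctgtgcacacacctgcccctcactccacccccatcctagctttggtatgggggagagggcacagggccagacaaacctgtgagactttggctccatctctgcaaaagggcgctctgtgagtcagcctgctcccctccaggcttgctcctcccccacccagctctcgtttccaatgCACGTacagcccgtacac
NDRG1, BNIP3L, SLC16A1, SLC2A3 and VEGFA were not matched to a window.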

How the data were processed

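Per the labels, total RNA of MDA-MB-231 cells was sequenced in paired-end mode, and the submitters' processing notes name bcl2fastq, FastQC, HISAT2 and GRCh38. The authors deposited a table of read counts per gene (29710 genes) and a table of FPKM (29256 genes, rounded to 2 decimals). The sources used here name no counter, annotation release or strand setting.

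The quasi-likelihood test of edgeR 4.0.16 (R 4.3.3; two-sided) was run on the counts after filterByExpr and TMM scaling, with glmQLFit, glmQLFTest and group as the only term, and Benjamini-Hochberg adjustment over 16515 tested genes and a threshold of 0.05. Each SE is the size of the log2 fold change divided by the root of its F statistic, and intervals use the fitted degrees of freedom. CPM values are TMM scaled. Alternatives were RLE or library-size scaling, other filters, DESeq2 1.42.0, limma 3.58.1 (voom, or log2 of FPKM plus 1 or 0.1), a replicate block, a gene length correction (loess, span 0.3) and leaving out libraries. Summing overlapping rows was added after the data were seen. Gene length was inferred from counts and FPKM. The scripts were tested on simulated data. The members and lists were chosen with earlier results of these data known. Of each list of other pathway genes, all called genes were to be named, or, where none was called, the 2 largest absolute log2 fold changes at a mean CPM of at least 1. Overlaps and exon sequences are from GENCODE 29, which is not the release of the identifiers, and promoters from RefSeq.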

Additional observations from a re-analysis of the deposited data

How the results depend on the processing

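Of 708 values of single members under the alternatives, 622 kept their direction and side of the threshold, 36 passed it newly and 50 changed sign. The median log2 fold change of the members was 0.063 with library size alone (which moved that of all genes to 0.04), 0.048 at a mean CPM of at least 5, 0.075, 0.080 and 0.062 on FPKM plus 1, plus 0.1 and unfiltered, and 0.014 after length correction. With library size alone, PFKM was at 0.021, PGAM1 0.034, LDHA 0.011 and VEGFA 0.015. On FPKM, PFKM was at 0.018 to 0.020, PGAM1 0.034, LDHA 0.011 and VEGFA 0.013. PGAM1 was at 0.0022 at a mean CPM of at least 5. After length correction, PGK1 was at −0.0077, PGAM1 0.051, PKM −0.031, SLC2A1 −0.00047 and ANKRD37 0.000045, and with the block added −0.0084, 0.051, −0.030 and −0.00066 for the first 4. With overlapping rows summed ALDOA was at −0.094, and without SRPK2 replicate 2 as well, ALDOA was at −0.11, PFKM 0.0015, PGK1 −0.036 and VEGFA 0.018.

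All genes called were 997 without a filter, 153 with DESeq2, 18 on unfiltered FPKM, and 1407 with rows summed without SRPK2 replicate 2. Members called were 1 without a filter (LDHB, edgeR adjusted p = 0.00401) and 3 in the last of these, and other pathway genes were 7, 1 (DESeq2) and 9. Replicate numbers are shared between groups. After the group mean of each gene was subtracted, same-numbered libraries correlated at 0.08, 0.23 and 0.17. Differently numbered libraries of the 2 groups correlated at −0.165 to −5.48e-05. Because 1 same-numbered value was under 0.1, the numbers were not taken as pairs in the main test. That cut-off cannot decide whether the replicates were matched, which the labels do not say. Every library correlated best with its own number. The replicate block called 3899 genes (23.6%), 15 members (41.7%) and 36 other pathway genes, and with length correction 3187 (23.4%), 14 of 34 members (41.2%) and 30. The cause was not tested.

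Leaving out each library in turn gave 27 to 1403 genes, 0 to 3 members and 0 to 9 other pathway genes called, with the upper end in each case without SRPK2 replicate 2, and a median of 0.023 to 0.044. Log2 fold changes that changed sign ran from −0.038 to 0.0016 (PFKM), −0.19 to 0.053 (ALDOC), −0.036 to 0.041 (PGK1), −0.040 to 0.028 (PGAM1), −0.011 to 0.045 (PKM), −0.067 to 0.0098 (LDHA), −0.76 to 0.097 (SLC16A1), −0.073 to 0.0100 (SLC16A3), −0.012 to 0.060 (EGLN1), −0.064 to 0.018 (VEGFA) and −0.12 to 0.027 (ANKRD37). Those that kept their sign but moved by over 1.5 times ran 0.041 to 0.15 (HIF1A), 0.065 to 0.19 (PDK1), 0.085 to 0.19 (SLC2A3), −0.19 to −0.079 (TPI1), −0.15 to −0.039 (GAPDH), −0.24 to −0.11 (ADM), −0.11 to −0.046 (ENO1), −0.46 to −0.14 (LDHB), 0.27 to 0.50 (ALDOA), 0.06 to 0.14 (HK1), 0.035 to 0.12 (GPI), 0.021 to 0.13 (PFKFB3), −0.077 to −0.029 (EPAS1), 0.014 to 0.11 (BNIP3), 0.025 to 0.074 (BNIP3L) and 0.035 to 0.10 (P4HA1). The share differences that changed sign were −0.0060 to 0.058 percentage points for SLC16A3 and −0.859 to 0.534 for BNIP3L. Read depth limits SLC16A1, CA9 and the ALDOA row.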
